A study of Oryza sativa Japonica Group with 9 samples.

Results

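In developing rice grains, 23 gene models were higher and 2 were lower in GSK5-edited caryopses than in both ARF4-edited and wild-type (WT) caryopses, while the ARF4-edited and WT groups stayed within 2-fold of each other. These 25 were found among 55986 gene models, so 0.0411% counted as risen and 0.00357% as fallen. A gene model counted as risen when the lowest GSK5 library had at least 2 FPKM and at least 2 times the highest of the 6 other libraries. It counted as fallen when the lowest of the 6 others had at least 2 FPKM and at least 2 times the highest GSK5 library. FPKM counts fragments per length of gene model and per library size, so levels can be set side by side between genes. A further 2 gene models met these numeric criteria and are not analysed here. The members were chosen by their FPKM in all 9 libraries, so the values below are a description, and no p-value is attached to a member.

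The caryopsis is the rice fruit, a seed fused with its pericarp. GSK5 is a kinase of the GSK3/SHAGGY-like family, whose best known plant members phosphorylate transcription factors of the brassinosteroid pathway and hold that pathway down. ARF4 is an auxin response factor, a transcription factor of auxin signalling. Brassinosteroid and auxin are growth hormones, and both are known to affect rice grain size. The series title ties the kinase to grain size and weight.

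There were 3 libraries each of GSK5-edited (genotype GSK5-/-), ARF4-edited (ARF4-/-) and WT caryopses, all of the japonica cultivar Nipponbare. The sample labels give day 9 after flowering and the series text days 7 to 8, and which holds was not settled. Neither the number of edited lines nor a separate plant for each library is given in the labels, so a p-value here reflects how far libraries of a group lie apart, and that distance may be technical. LOC_Os03g62500, entered in the gene list as GSK5 with its name unchecked, stood at 32.21 ± 1.56 FPKM in GSK5-edited, 40.75 ± 7.05 in ARF4-edited and 39.79 ± 7.95 in WT caryopses (SD, n = 3), and it was not a member. An edit need not alter a transcript level, so this level does not check the label.

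Among endosperm markers, the sugar transporter gene SWEET11 ran from 169.3 to 1516 FPKM over the 9 libraries and the starch synthase gene SSI from 34.31 to 82.84. The starch genes Wx and SSIIa stayed at or under 4.16 and 0.92 FPKM in every library, and NF-YB1, an endosperm transcription factor gene, at or under 0.48. Loci and names of these markers were written from memory. Summed FPKM per library lay between 585414 and 626390. Absolute depth is unknown, and relative depth spanned a 1.42-fold range. The median SD of a gene within a group, in log2(FPKM + 1), was 0.11 in GSK5-edited, 0.24 in ARF4-edited and 0.27 in WT caryopses, so the GSK5 libraries varied least.

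The sources used here pair none of the 25 identifiers with a name or description, so every member is given by its MSU locus, in which the digits after Os are the chromosome. Neither function nor sequence is stated for a member, apart from 1 that stands in a list of heat shock genes. As RNA came from whole caryopses, more cells of a type and more RNA per cell cannot be told apart.

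**Figure D1:**
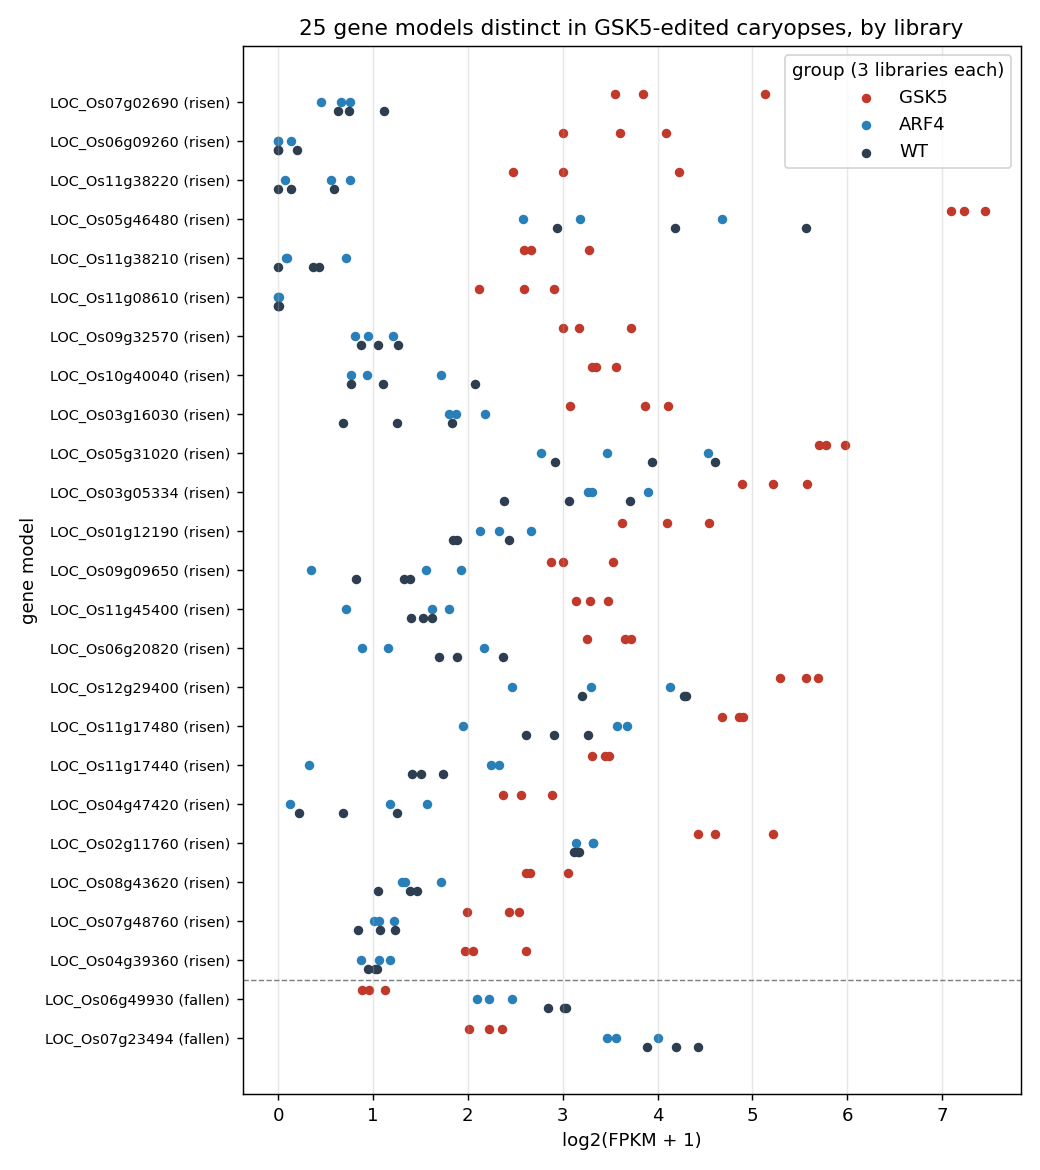
Each row is 1 member and each point 1 library, on the scale log2(FPKM + 1), with GSK5-edited points uppermost in a row, ARF4-edited in the middle and WT lowest. Risen members stand above the dashed line, ordered by the size of the difference on that scale, and the 2 fallen ones below it; ARF4-edited and WT points interleave in most rows.

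The clearest group held 4 risen members for which every ARF4-edited and WT library stayed under 1 FPKM. LOC_Os11g08610 stood at 3.33, 5.01 and 6.52 FPKM in GSK5-edited caryopses, against 0.01, 0 and 0 in ARF4-edited and 0, 0.01 and 0 in WT caryopses. LOC_Os06g09260 stood at 16.04, 11.16 and 7.04 FPKM in GSK5-edited caryopses, against 0, 0 and 0.1 in ARF4-edited and 0.15, 0 and 0 in WT caryopses. Both were thus close to undetected outside the GSK5 group and present in each GSK5 library. The lowest GSK5 library of LOC_Os11g08610 was 333 times the highest other library and that of LOC_Os06g09260 46.9 times, although values of 0.01 FPKM are at the rounding limit of the table and make the first ratio coarse. On the log2(FPKM + 1) scale, which understates changes of low genes, LOC_Os06g09260 differed by 3.52 between GSK5-edited and ARF4-edited caryopses and by 3.50 between GSK5-edited and WT caryopses (SE 0.26 for each, from the limma fit over all genes). For LOC_Os11g08610 both differences were 2.53 (SE 0.21).

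The other two of this group are direct neighbours on chromosome 11, with no gene model between them. LOC_Os11g38210 had 5.34, 8.73 and 5.02 FPKM in GSK5-edited caryopses, against 0.06, 0.07 and 0.64 in ARF4-edited and 0.29, 0.35 and 0 in WT caryopses. LOC_Os11g38220 had 4.56, 17.72 and 7.01 FPKM in GSK5-edited caryopses, against 0.05, 0.47 and 0.69 in ARF4-edited and 0.1, 0.51 and 0 in WT caryopses. Both were highest in GSK5 replicate 2 and at 0 in WT replicate 3, and ARF4 replicate 3 was the highest of the 6 others for both. Whether they are close copies that share reads, or a single transcript split by the gene models, cannot be read from the table. The gene models on either side of the pair showed no such difference: LOC_Os11g38200 stood at 1.86, 1.21 and 1.11 FPKM in GSK5-edited, 1.26, 1.44 and 0.96 in ARF4-edited and 2.38, 1.64 and 1.74 in WT caryopses, and LOC_Os11g38230 stayed under 1 FPKM in every library.

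LOC_Os07g02690 differed by 3.55 between GSK5-edited and ARF4-edited caryopses and by 3.34 between GSK5-edited and WT caryopses on the log2(FPKM + 1) scale. Neither was the largest among the members: LOC_Os05g46480 differed by 3.78 from ARF4-edited and LOC_Os06g09260 by 3.50 from WT caryopses. Which member leads also depends on the pseudocount. With 0.5 the differences of LOC_Os06g09260 were larger (4.41 and 4.38, against 4.07 and 3.78 for LOC_Os07g02690). With 5 those of LOC_Os05g46480 were (3.33 and 2.73, against 2.01 and 1.95). LOC_Os07g02690 stood at 10.76, 33.98 and 13.35 FPKM in GSK5-edited caryopses, against 0.69, 0.59 and 0.37 in ARF4-edited and 0.55, 1.17 and 0.68 in WT caryopses. GSK5 replicate 2 lay far above the other GSK5 libraries, so its mean of 19.36 ± 12.72 FPKM (SD, n = 3) rests partly on that library, and the lowest GSK5 library was still 9.2 times the highest other one. LOC_Os09g32570, with a mean of 9.07 ± 2.71 FPKM in GSK5-edited caryopses, 1 ± 0.28 in ARF4-edited and 1.10 ± 0.29 in WT, was separated by 4.99 times and LOC_Os11g45400 by 3.15 times. LOC_Os11g45400 stood at 10.17, 8.78 and 7.84 FPKM in GSK5-edited caryopses, against 2.07, 2.49 and 0.64 in ARF4-edited and 1.64, 2.08 and 1.89 in WT caryopses. These 2 were the only risen members that met the rule under all 16 other settings tried. In all, 7 of the 23 were separated by 3 times or more and the median separation was 2.26.

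Abundant members made up a second group, with 6 of the 23 at a mean of 25 FPKM or more in GSK5-edited caryopses. LOC_Os05g46480 was the most abundant, with 149.61, 174.13 and 135.64 FPKM in GSK5-edited caryopses, against 8.05, 4.97 and 24.54 in ARF4-edited and 17.17, 6.7 and 46.21 in WT caryopses. LOC_Os05g31020 had 50.95, 62.11 and 53.62 FPKM in GSK5-edited caryopses, against 10.04, 5.82 and 22.12 in ARF4-edited and 14.32, 6.56 and 23.43 in WT caryopses. LOC_Os12g29400 had 38.14, 46.38 and 50.57 FPKM in GSK5-edited caryopses, against 8.87, 4.51 and 16.57 in ARF4-edited and 18.76, 8.21 and 18.41 in WT caryopses. All 3 varied little among the GSK5 libraries and widely among the other 6, so the ARF4-edited and WT groups overlapped for each. LOC_Os05g46480 differed by 3.78 between GSK5-edited and ARF4-edited caryopses and by 3.03 between GSK5-edited and WT caryopses on the log2(FPKM + 1) scale, with an SE of 0.69 that was the largest among the 25 members. Of 10 endosperm markers, SWEET11 also varied widely outside the GSK5 group, at 1280.51, 1473.39 and 1370.26 FPKM in GSK5-edited caryopses, against 1006.05, 169.28 and 1333.99 in ARF4-edited and 293.19, 571.07 and 1515.53 in WT caryopses. Its highest library was thus WT replicate 3, and the groups overlapped. SWEET11 made up most of the markers' summed FPKM, which ran from 1462 to 1651 in GSK5-edited, 297.6 to 1484 in ARF4-edited and 437 to 1707 in WT caryopses. RISBZ1, a seed storage regulator gene, and the markers SSIIa and RPBF had their highest mean in ARF4-edited caryopses, the other markers in GSK5-edited caryopses. In GSK5-edited, ARF4-edited and WT caryopses SSI averaged 66.1, 45.8 and 57.8 FPKM, and BEIIb 50.7, 34.3 and 41.1. ISA1 averaged 10.7, 7.49 and 9.46 FPKM, and Wx 2.48, 0.76 and 0.40. For Wx every GSK5 library lay above every other library, at low levels, as was so for 5.4% of all genes tested. AGPS2, a starch synthesis gene, averaged 40.3, 33.8 and 39.8 FPKM, and RISBZ1 3.96, 9.47 and 5.15 FPKM. Of 8 endosperm markers tested, limma called none in GSK5 against ARF4 or in GSK5 against WT, where 0.483% and 2.15% of all genes were called. At an unadjusted limma p under 0.05 there were 4 and 2 of the 8, where 13.8% and 18.5% of all genes were. Their median log2 differences were 0.53 and 0.30, against 0.05 and 0.11 over all genes. The part of endosperm in the members' values was not tested.

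The 6 libraries outside the GSK5 group ranked alike for these genes. For LOC_Os05g46480 and LOC_Os05g31020 the order was the same throughout: WT replicate 3 was highest, then ARF4 replicate 3, WT replicate 1, ARF4 replicate 1 and WT replicate 2, with ARF4 replicate 2 lowest. LOC_Os12g29400 differed from it only in the order of the 3 highest libraries, and so did LOC_Os09g32570 and LOC_Os10g40040. These 5 members therefore shared the same 3 highest libraries and the same order of the 3 lowest, a pattern noticed after their values were seen. With these 5 included, 105 of the 23385 genes tested (0.449%) showed it. Of the 1262 genes tested with every GSK5 library above every other library, 17 (1.35%) did. LOC_Os10g40040 stood at 8.94, 10.77 and 9.22 FPKM in GSK5-edited caryopses, against 0.92, 0.7 and 2.3 in ARF4-edited and 3.22, 0.71 and 1.16 in WT caryopses.

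**Figure D2:**
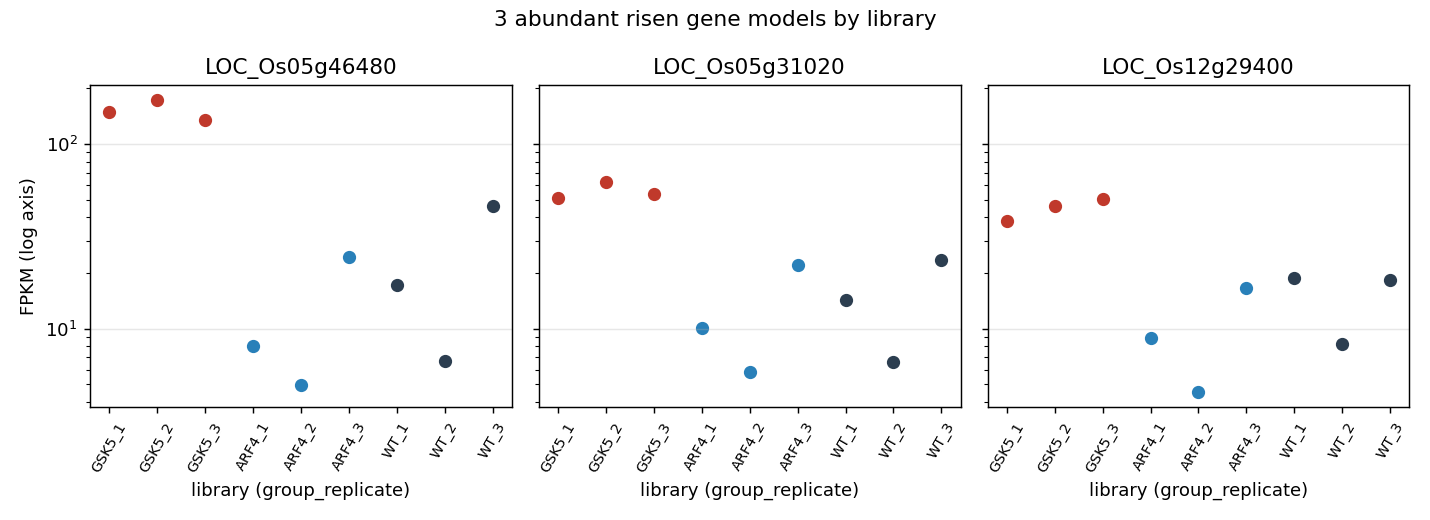
FPKM on a log axis in each of the 9 libraries for 3 abundant risen members, 1 panel each, with GSK5-edited libraries at the left, ARF4-edited in the middle and WT at the right. In every panel ARF4 replicate 2 and WT replicate 2 are low within their groups, and the 3 GSK5 libraries lie above the others.

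The remaining abundant members were LOC_Os03g05334, LOC_Os11g17480 and LOC_Os02g11760. LOC_Os03g05334 had 28.63, 36.1 and 46.6 FPKM in GSK5-edited caryopses, against 8.61, 13.89 and 8.88 in ARF4-edited and 7.35, 4.22 and 12.05 in WT caryopses. LOC_Os02g11760 was the steadiest outside the GSK5 group, at 20.47, 36.3 and 23.38 FPKM in GSK5-edited caryopses, against 8.99, 8.98 and 7.84 in ARF4-edited and 7.72, 8.03 and 7.93 in WT caryopses. The highest of its 6 other libraries was 1.16 times the lowest, the smallest such ratio among the 19 risen members with no library at 0, whose median was 4.03. LOC_Os11g17480 is described with its neighbour next.

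LOC_Os11g17440 and LOC_Os11g17480 lie close together on chromosome 11, with 2 gene models between them in the table, neither above 0.18 FPKM in any library. LOC_Os11g17440 had 10.19, 9.92 and 8.91 FPKM in GSK5-edited caryopses, against 4.03, 0.25 and 3.75 in ARF4-edited and 1.67, 2.33 and 1.84 in WT caryopses. LOC_Os11g17480 had 28.96, 28.04 and 24.54 FPKM in GSK5-edited caryopses, against 10.87, 2.87 and 11.83 in ARF4-edited and 5.13, 6.51 and 8.61 in WT caryopses. Both were lowest in ARF4 replicate 2, and the ratio of the second to the first was 2.75 to 2.84 in the GSK5 libraries. In ARF4 replicates 1, 2 and 3 it was 2.70, 11.5 and 3.15 and in WT replicates 1, 2 and 3 it was 3.07, 2.79 and 4.68. Reads shared between close copies could tie the pair together, and the table does not show whether they are copies.

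LOC_Os03g16030 stands under the name HSP18 (unchecked) in a list of 8 heat shock genes, which encode chaperones and their regulators. It had 7.45, 13.6 and 16.25 FPKM in GSK5-edited caryopses, against 2.68, 2.48 and 3.53 in ARF4-edited and 0.61, 1.38 and 2.56 in WT caryopses. None of the other heat shock genes had every GSK5 library above every other library, and HSC70 stood at 65.34, 88.49 and 99.19 FPKM in GSK5-edited caryopses, against 220.75, 24.62 and 317.95 in ARF4-edited and 10.57, 12.43 and 34.97 in WT caryopses. HSP101, a chaperone that pulls protein aggregates apart, averaged 4.04 ± 1.05 FPKM in GSK5-edited, 2.41 ± 1.14 in ARF4-edited and 0.84 ± 0.29 in WT caryopses (SD, n = 3). In GSK5 against WT limma called HSP101 higher (log2 difference 1.45, adjusted p = 0.044, 0.02 to 0.201 over 16 alternatives, of which 11 lost the call), and in GSK5 against ARF4 it did not (0.60, adjusted p = 0.401). Summed over the 8 heat shock genes, libraries ran from 165.5 to 235.9 FPKM in GSK5-edited, 92.34 to 767.8 in ARF4-edited and 57.02 to 102.2 in WT caryopses. The part of this in the value of LOC_Os03g16030 was not tested.

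The other 7 risen members had GSK5 means between 3.74 and 16.6 FPKM. LOC_Os01g12190 averaged 16.58 ± 5.53 FPKM in GSK5-edited, 4.26 ± 1.02 in ARF4-edited and 3.23 ± 1.02 in WT caryopses. LOC_Os06g20820 averaged 10.79 ± 1.94, 1.86 ± 1.44 and 3.05 ± 1.02 FPKM in these groups. For LOC_Os09g09650 the means were 7.98 ± 2.28 in GSK5-edited, 1.67 ± 1.29 in ARF4-edited and 1.30 ± 0.47 in WT caryopses. LOC_Os08g43620 and LOC_Os04g47420 averaged 5.92 ± 1.22 and 5.15 ± 1.13 FPKM in GSK5-edited caryopses, against 1.77 ± 0.46 and 1.11 ± 0.95 in ARF4-edited and 1.49 ± 0.36 and 0.72 ± 0.61 in WT caryopses. The smallest differences were those of LOC_Os07g48760, at 4.06 ± 0.97 FPKM in GSK5-edited, 1.14 ± 0.17 in ARF4-edited and 1.08 ± 0.28 in WT caryopses, and LOC_Os04g39360, at 3.74 ± 1.21, 1.06 ± 0.21 and 1.01 ± 0.07 FPKM.

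The fallen side held 2 gene models. Another 3 were lower in GSK5-edited caryopses by the same margin but had ARF4 and WT means over 2-fold apart. LOC_Os07g23494 stood at 3.67, 3.05 and 4.13 FPKM in GSK5-edited caryopses, against 10.08, 15 and 10.83 in ARF4-edited and 13.79, 20.5 and 17.37 in WT caryopses. LOC_Os06g49930 stood at 1.19, 0.85 and 0.95 FPKM in GSK5-edited caryopses, against 3.66, 4.52 and 3.29 in ARF4-edited and 7.17, 7.09 and 6.19 in WT caryopses. The ARF4-edited and WT libraries overlapped for LOC_Os07g23494 but not for LOC_Os06g49930, where each ARF4-edited library lay between the GSK5 and WT groups. On the log2(FPKM + 1) scale LOC_Os07g23494 was lower by -1.48 against ARF4-edited and by -1.97 against WT caryopses (SE 0.20), and LOC_Os06g49930 by -1.27 and -1.97 (SE 0.15).

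Among the 23 risen members, the GSK5 libraries themselves differed. The highest GSK5 library was 1.14 to 3.89 times the lowest, with a median of 1.63. GSK5 replicate 1 was lowest for 15 members and GSK5 replicate 3 for 8, while GSK5 replicate 2 was lowest for none. Outside the group no single library stood nearest: each of the 6 was the highest for 2 to 5 members, a tie being given to the first. The ARF4 mean was above the WT mean for 13 members and below it for 9, and the ratio of ARF4 to WT means ran from 0.54 to 1.98, where the rule itself allows no more than 2-fold.

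All 25 members passed the filter on low values (1 FPKM in at least 3 libraries), which a member passed through the GSK5 libraries alone where the others were low. In the limma fit over 23385 genes, 13 of the 23 risen members were called higher in GSK5 against ARF4, where 0.308% of all genes were, and 15 in GSK5 against WT, where 1.45% were. The fallen pair was called lower in both, where 0.175% and 0.701% of all genes were. Between ARF4-edited and WT caryopses, where 3.32% of all genes were called and 2.02% were called lower, LOC_Os06g49930 was the only member called, and it was lower. The same contrasts chose the members and share libraries, so nothing is read from these counts. The 8 risen members not called in GSK5 against WT include LOC_Os05g46480, LOC_Os05g31020 and LOC_Os12g29400, whose WT libraries were far apart. They also include LOC_Os11g17440, whose WT libraries lay close together (1.67, 2.33 and 1.84 FPKM). The fit shares 1 spread over the 3 groups, and the reason for the missing calls was not tested.

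The threshold cut through a continuous range. Just inside it, LOC_Os12g29400 was separated by 2.03 times, and just outside it LOC_Os04g02640 by 1.98 times, with 29.94, 25.5 and 38.26 FPKM in GSK5-edited caryopses, against 12.58, 4.64 and 12.85 in ARF4-edited and 1.58, 11.54 and 11.81 in WT caryopses. A further 42 gene models met the rest of the rule for risen genes at a separation from 1.5 up to 2 times. On the lower side LOC_Os07g23494 was separated by 2.44 times, and LOC_Os10g10280 just missed, with 5.43, 6.27 and 4.65 FPKM in GSK5-edited caryopses, against 15.46, 14.16 and 11.89 in ARF4-edited and 20.7, 22.88 and 23.93 in WT caryopses. There were 10 gene models between 1.5 and 2 times on that side. Another 44 gene models were separated upward by 2 times or more but had ARF4 and WT means over 2-fold apart. The ARF4 mean was the higher for 37 of them.

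The same rule was applied to each of the other groups as a description. Applied to ARF4-edited caryopses alone, it found 18 gene models higher and 16 lower, and applied to WT alone 39 higher and 66 lower. The counts for GSK5-edited caryopses with the left-out gene models included were 25 higher and 2 lower. Differences between these counts were not tested.

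Position on the chromosomes was not used by the rule. Chromosome 11 held 6 of the 23 risen members (26.1%), against 7.43% of all gene models and 5.74% of the genes tested, and 4 of those 6 belonged to the pairs described above. The other chromosomes held 1 or 2 risen members each, and the fallen ones lie on chromosomes 6 and 7. LOC_Os03g05334 and LOC_Os03g16030 lie on chromosome 3, as does the locus listed as GSK5.

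The gene models directly beside a member by locus number were not used by the rule either. There were 48 such neighbours, 27 of them tested, and limma called none in either direction, where 2.15% of all genes were called in GSK5 against WT and 0.483% in GSK5 against ARF4. At an unadjusted p under 0.05 there were 5 in GSK5 against ARF4, where 13.8% of all genes were, and 6 in GSK5 against WT, where 18.5% were. Their median log2 difference was -0.04 in GSK5 against ARF4 (0.05 over all genes) and 0.12 in GSK5 against WT (0.11 over all genes). The highest in GSK5 against WT was LOC_Os03g16020, beside LOC_Os03g16030, at a log2 difference of 2.07 (SE 0.73, adjusted p = 0.199). Without WT replicate 3, which left 2719 calls over all genes in place of 502, 5 neighbours were called, 4 beside a risen member, of which LOC_Os02g11770, LOC_Os03g16040 and LOC_Os07g48750 were higher and LOC_Os05g46490 lower.

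**Figure D3:**
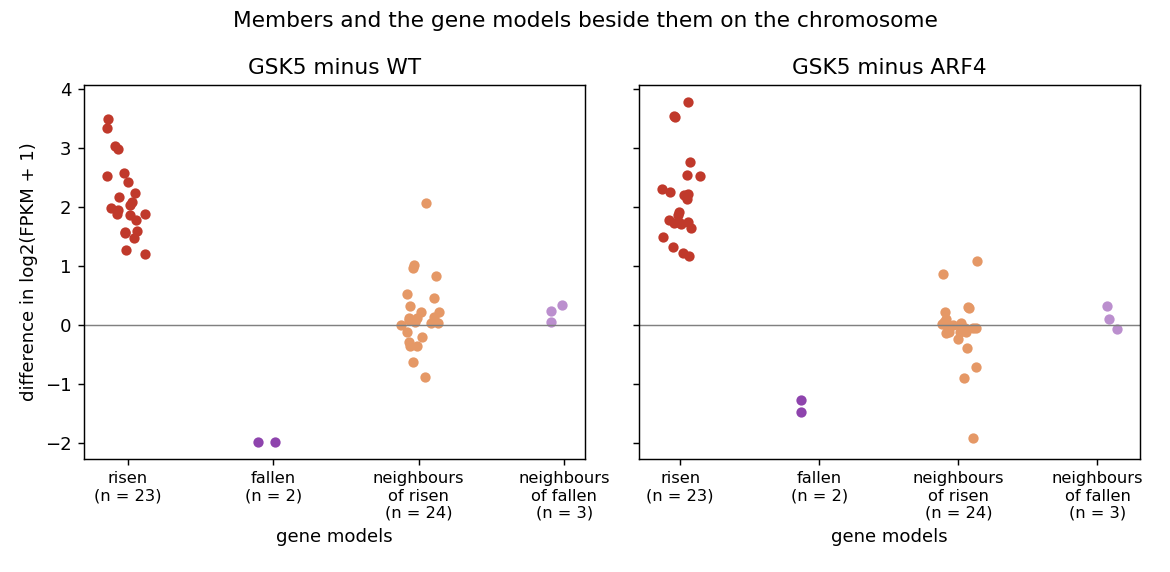
Differences in log2(FPKM + 1), GSK5 minus WT at the left and GSK5 minus ARF4 at the right, for the 23 risen and 2 fallen members and for the tested gene models beside them; each point is 1 gene model, spread sideways for legibility. The members lie away from 0 because they were chosen that way, and the neighbours spread around it.

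None of 19 genes in a list of the brassinosteroid pathway and its GSK3-like kinases (names from memory) was a member. The list also holds ARF4, an auxin response factor gene and the gene edited in the ARF4 group. ARF4 averaged 78.3 FPKM in GSK5-edited, 50.4 in ARF4-edited and 84.0 in WT caryopses. Its log2 difference in GSK5 against ARF4 was 0.62 (SE 0.14), and it is included in the counts that follow. Of 17 tested, limma called none in GSK5 against ARF4 or in GSK5 against WT, where 0.483% and 2.15% of all genes were called. At an unadjusted p under 0.05 there were 4 in GSK5 against ARF4 and 1 in GSK5 against WT, where 13.8% and 18.5% of all genes were. Their median log2 differences were 0.08 and 0.14, against 0.05 and 0.11 over all genes. The receptor kinase gene BRI1 stood at 19.8 FPKM in GSK5-edited, 24.6 in ARF4-edited and 16.4 in WT caryopses, and BZR1, a transcription factor gene of the pathway, at 22.7, 35.9 and 16.1 FPKM. BRD1, also in the list, had 474.92, 555.21 and 461.12 FPKM in GSK5-edited caryopses. It had 204.61, 110.15 and 296.44 in ARF4-edited and 250.37, 382.36 and 330.45 in WT caryopses. Every GSK5 library thus lay above every other library, as for 5.4% of all genes tested. Its limma log2 difference was 1.39 against ARF4 (adjusted p = 0.146) and 0.65 against WT (adjusted p = 0.34). No member stood among the listed endosperm, green pericarp, embryo or clock genes either.

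Of 4 green pericarp markers, RCA, the gene of Rubisco activase, was lower in GSK5-edited caryopses than in every other library, as were 1.83% of all genes tested. It stood at 129.97, 105.18 and 91.15 FPKM in GSK5-edited caryopses, against 208.86, 183.04 and 165.92 in ARF4-edited and 207.22, 210.56 and 176.07 in WT caryopses. Limma called it lower in GSK5 against WT (log2 difference -0.87, SE 0.17, adjusted p = 0.0399, 0.0236 to 0.182 over 16 alternatives, of which 9 lost the call). In GSK5 against ARF4 it was not called (-0.78, adjusted p = 0.108). The other 3 markers of this list were not called in either comparison, and their directions differed. In GSK5-edited, ARF4-edited and WT caryopses RBCS2 averaged 87.84, 28.85 and 111.5 FPKM. CAB2R averaged 564.7, 1026 and 596.2 FPKM in these groups, and CAB1R 90.35, 438 and 52.02. The summed FPKM of all 4 ran from 774.8 to 899.4 in GSK5-edited, 971.5 to 2457 in ARF4-edited and 722 to 1146 in WT caryopses. The part of this tissue in the members' values was not tested.

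Membership depended on scaling and on single libraries. Median-of-ratios scaling kept 17 of the 23 risen members and quantile normalization 11, all of which both kept. Leaving out 1 library at a time, 13 of the 23 met the rule every time, as did both fallen ones. The 7 risen members that met it in both scalings and in all 9 of these settings were LOC_Os02g11760, LOC_Os03g05334, LOC_Os05g31020, LOC_Os09g09650, LOC_Os09g32570, LOC_Os11g17440 and LOC_Os11g45400. Members dropped out when 1 library was removed because the ARF4 and WT means then lay over 2-fold apart, near 0 FPKM and at higher levels alike. LOC_Os06g09260, near 0 outside the GSK5 group, was lost in 4 of the 9 settings. LOC_Os05g46480, the most abundant member, was lost in 3. Among the others lost at least once were LOC_Os03g16030, LOC_Os06g20820, LOC_Os10g40040 and LOC_Os12g29400.

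**Figure D4:**
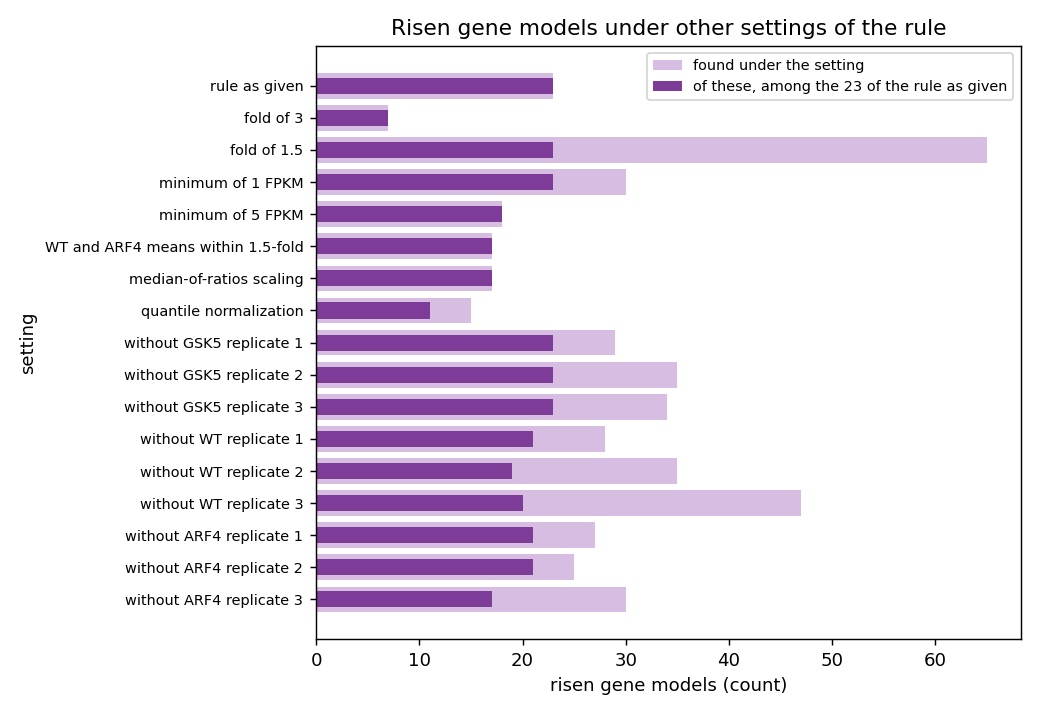
Number of risen gene models found under each setting of the rule (pale bars) and, of these, the number that belong to the 23 found by the rule as given (dark bars). Requiring a 3-fold separation leaves 7, and allowing 1.5-fold gives 65.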

How the data were processed

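The deposited table gives FPKM per rice gene model, rounded by the authors to 2 decimals, with 1 column per library. The submitters' processing notes name Bowtie 0.12.2 and mm8, a mouse build that cannot describe rice gene models. The quantifier, the rice build and its annotation are not stated there or elsewhere in the labels. A count model would need raw reads and was not used. Relative depth came from the steps of low values (0.1 to 0.5 FPKM) over 36 library pairs.

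The rule was applied to the deposited FPKM. Separately, limma 3.58.1 (R 4.3.3, mean-variance trend) was fitted to log2(FPKM + 1) for genes with 1 FPKM in at least 3 of 9 libraries, with 1 mean per group and a shared spread. Adjusted p-values are Benjamini-Hochberg over 23385 genes, and calls are under 0.05. The fit was tested on simulated data. In GSK5 against WT it recovered 38% of changes of 1 log2 unit and 76% of changes of 2. In GSK5 against ARF4 it recovered 39% and 74%, so a gene that was not called may still differ. Python 3.11.15, pandas 2.3.3 and matplotlib 3.10.9 were used.

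The members and lists were chosen with earlier results of these data known. The naming rule gave the first 2 risen (LOC_Os07g02690, LOC_Os06g09260) and both fallen loci where no table pairs names; the other members, chosen by the same given rule, are named as well. LOC_Os04g02640, LOC_Os10g10280 and the loci beside members were named after their values were seen. The RefSeq gene table paired 1 identifier of the file, no member, with a symbol.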

Additional observations from a re-analysis of the deposited data

How the results depend on the processing

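The 23 risen members became 7 at a 3-fold separation, 65 at 1.5-fold and 15 under quantile normalization, and stayed within 1.5 times of 23 under the other 4 settings. The 2 fallen members became 0 at 3-fold, 12 at 1.5-fold, 5 with a minimum of 1 FPKM, 1 with a minimum of 5 FPKM or with ARF4 and WT means within 1.5-fold, and 4 under quantile normalization. Leaving out 1 library gave 25 to 47 risen and 2 to 11 fallen. The highest counts came without WT replicate 3, and 11 fallen also without ARF4 replicate 2. A removed library leaves fewer values to separate and can also shift the group means that the rule compares. The cause of the changes in these counts was not tested. Scaling by median of ratios or quantiles moved the median of all genes in GSK5 against WT from 0.11 to 0.01 or less on the log2 scale, so about 0.1 of each such difference depends on scaling. All 650 recomputed log2 differences of members kept their sign, and 60 moved by more than 1 SD between replicates. Most of these came from the pseudocount: 41 moved and 9 did not with a pseudocount of 5, and 15 moved and 35 did not with 0.5.

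Over all genes, limma called 502 in GSK5 against WT, 113 in GSK5 against ARF4 and 776 in ARF4 against WT. With the replicate number as a block these were 239, 30 and 219, and when each pair of groups was fitted alone 564, 205 and 82. Same-numbered libraries did not deviate together (correlations from -0.35 to 0.08), and differently numbered ones ran from -0.32 to 0.35. With 3 libraries a group, this does not settle whether the numbers pair the samples. With no filter on low values 220 were called in GSK5 against ARF4. Under median-of-ratios scaling 42 of 83 calls in GSK5 against ARF4 were higher and under quantile normalization 50 of 96, against 72 of 113 as deposited; in GSK5 against WT quantile normalization gave 225 higher and 162 lower, against 338 and 164. Leaving out 1 library gave 135 to 2719 calls in GSK5 against WT, 17 to 504 in GSK5 against ARF4 and 156 to 3498 in ARF4 against WT. Called neighbours numbered 1 in each GSK5 comparison with no filter, 1 in GSK5 against WT under quantile normalization, and 0 to 5 (GSK5 against WT) and 0 to 1 (GSK5 against ARF4) when 1 library was left out. For the brassinosteroid list, which includes ARF4, these ranges were 0 to 2 in both. In GSK5 against WT the 2 list genes and the 5 neighbours came without WT replicate 3. That setting gave 2719 calls over all genes in place of 502. In GSK5 against ARF4 the 2 list genes and the 1 neighbour came without ARF4 replicate 3. That setting gave 504 calls over all genes in place of 113. These were the highest totals when 1 library was left out, so no excess among list genes or neighbours is read from these counts. Genes near 0 FPKM are limited by depth, which is known only in relative terms.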

Other observations

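The order of the 6 libraries outside the GSK5 group that LOC_Os05g46480 and LOC_Os05g31020 share was found in 20 of 23385 genes tested (0.0855%), chosen here after their values were seen. The order was taken from these 2 members, so no share is read from it. Beside them, every GSK5 library lay above every other library in LOC_Os03g07180, LOC_Os06g21516 and LOC_Os04g41470. LOC_Os03g07180 stood at 9.78, 10.12 and 5.78 FPKM in GSK5-edited caryopses, against 0.12, 0.09 and 0.38 in ARF4-edited and 0.22, 0.1 and 1.46 in WT caryopses. It missed the rule because its WT mean was over 2 times its ARF4 mean. LOC_Os06g21516 stood at 1.41, 1.13 and 1.3 FPKM in GSK5-edited caryopses, against 0.08, 0.03 and 0.16 in ARF4-edited and 0.13, 0.05 and 0.45 in WT caryopses. LOC_Os04g41470 differed little, at 48.9, 53.96 and 47.98 FPKM in GSK5-edited caryopses, against 40.89, 36.68 and 44.38 in ARF4-edited and 42.33, 38.69 and 45.65 in WT caryopses.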
